A study of Mus musculus with 24 samples.

Results

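The genes described here take sugar into the intestinal epithelial cell and handle fructose and glucose phosphate inside it. They are 9 genes chosen by name: *Slc5a1*, *Slc2a2*, *Slc2a5*, *Khk*, *Tkfc*, *G6pc*, *Fbp1*, *Pck1* and *Mlxipl*, of 53465 genes in the count table. All 9 passed the filter on low counts, which left 15044 genes for testing. RNA was sequenced from 24 libraries of sorted epithelial cells, 3 for each of 8 groups, from mice of the strain Guca2a-Venus. Every group carried the same transgene, a BAC in which the fluorescent protein Venus takes the place of the *Guca2a* (guanylin) coding sequence, and the groups were cells with or without green fluorescence (GFP positive and GFP negative in the labels, Venus-positive and Venus-negative below) from the duodenum, jejunum, ileum and colon. The line came from 1 founder, so fluorescence reports where this one insertion is active. The duodenum was the uppermost segment of the small intestine, the jejunum a segment from its middle and the ileum its last segment, while colon and rectum were taken whole. Immune cells (CD45+) and dead cells were gated out. The labels name no treatment and no age.

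Dietary glucose and galactose enter the enterocyte, the absorptive cell of the villus, with sodium through SGLT1, the product of *Slc5a1*. Fructose enters through GLUT5 (*Slc2a5*), and GLUT2 (*Slc2a2*) carries glucose, galactose and fructose across the basolateral membrane. Ketohexokinase (*Khk*) phosphorylates fructose, and triokinase (*Tkfc*) phosphorylates the glyceraldehyde that forms further along the pathway. *Pck1*, *Fbp1* and *G6pc* encode enzymes of gluconeogenesis, and *Mlxipl* encodes ChREBP, a transcription factor that responds to sugar.

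In GRCm38 the transporter genes lie at chr5:33104219-33162870 (*Slc5a1*), chr3:28697903-28731359 (*Slc2a2*) and chr4:150119283-150144169 (*Slc2a5*), and *Khk* and *Tkfc* at chr5:30921431-30931248 and chr19:10587791-10605654. *G6pc* lies at chr11:101367561-101377903, *Fbp1* at chr13:62864753-62888282, *Pck1* at chr2:173153048-173159273 and *Mlxipl* at chr5:135089890-135138382, and all but *Tkfc* and *Fbp1* are on the plus strand. Shown are 4 of the 10 windows of 250 bases before the RefSeq transcription start (GRCm38.p6), since the transporter genes *Slc5a1* and *Slc2a2* rose together in Venus-positive cells of jejunum and ileum, *Pck1* rose in all 4 regions and *Mlxipl*, which shares the E-box letters with *Slc5a1*, rose in none. Capitals mark the matches to 6 motifs searched on both strands: the E-box spelled CACGTG, the core of GATA factor sites spelled GATAA, the half-site of HNF1 factors spelled GTTAAT, a site of HNF4 factors spelled CAAAGTCC, the half-site of the cyclic AMP response element spelled TGACGT and the TATA box spelled TATAAA.
Slc5a1 (chr5:33103969-33104218, plus strand): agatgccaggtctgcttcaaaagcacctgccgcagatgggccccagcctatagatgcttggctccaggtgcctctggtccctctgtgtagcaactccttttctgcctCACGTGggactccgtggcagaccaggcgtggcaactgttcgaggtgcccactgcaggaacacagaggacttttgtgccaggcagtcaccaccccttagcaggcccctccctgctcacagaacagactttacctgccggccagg
Slc2a2 (chr3:28697653-28697902, plus strand): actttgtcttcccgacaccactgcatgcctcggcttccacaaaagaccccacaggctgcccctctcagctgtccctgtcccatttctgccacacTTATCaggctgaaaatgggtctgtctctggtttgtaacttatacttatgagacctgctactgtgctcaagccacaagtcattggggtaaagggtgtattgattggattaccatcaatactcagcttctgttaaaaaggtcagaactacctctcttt
Pck1 (chr2:173152823-173153072, plus strand): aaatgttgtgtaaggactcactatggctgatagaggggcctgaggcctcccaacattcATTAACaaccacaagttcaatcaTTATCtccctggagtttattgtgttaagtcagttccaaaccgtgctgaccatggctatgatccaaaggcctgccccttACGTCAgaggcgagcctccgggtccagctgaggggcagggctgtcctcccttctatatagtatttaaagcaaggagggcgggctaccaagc
Mlxipl (chr5:135089640-135089889, plus strand): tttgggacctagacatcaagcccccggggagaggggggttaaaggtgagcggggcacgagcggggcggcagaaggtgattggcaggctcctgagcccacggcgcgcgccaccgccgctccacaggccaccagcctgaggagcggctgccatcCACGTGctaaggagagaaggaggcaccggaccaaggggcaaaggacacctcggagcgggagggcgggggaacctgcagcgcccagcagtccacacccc
The E-box letters stood 143 bases before the start of *Slc5a1*, 71 before that of *Khk* and 98 before the upstream of 2 annotated starts of *Mlxipl*. They occur in 6.02% of 32817 windows of the same length. The HNF1 half-site occurred at *Khk*, *G6pc* and *Pck1*, and in 6.44% of all windows. *Pck1* also held the cyclic AMP half-site, 91 bases before its start, which 6.46% of windows hold. GATAA was present at *Slc2a2*, *Fbp1* and *Pck1* against 22.6% of windows, *G6pc* held the TATA letters at 29 bases (12.4% of windows), and none of the 10 member windows held CAAAGTCC, which 1.2% of windows hold. A match describes the letters of the window and not a bound factor.

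Between 7458616 and 23063124 reads per library fell on genes, and mitochondrial genes took 32.3% to 80.7% of them. This share moved with the sort: it was 32.3% to 46.6% in duodenal positive against 64.6% to 76.4% in negative libraries, 47.1% to 60.6% against 61.2% to 78.8% in the jejunum and 41.0% to 55.4% against 64.7% to 70.9% in the ileum, without overlap, and 68.6% to 77.9% against 65.3% to 80.7% in the colon. Its part in the differences between the sorts was not tested. A count of 3, taken as the floor of detection, equals 0.106 to 0.360 normalised CPM (counts scaled to the TMM-adjusted library size), and covers counting error only. *Guca2a* was higher in Venus-positive cells of all 4 regions, by 5.75 ± 0.40 (log2 fold change ± SE) in the duodenum and by 2.65, 2.86 and 2.69 in jejunum, ileum and colon; reads from remaining guanylin sequence of the transgene cannot be told apart from those of the gene. Over 24 pairs of replicates the chi-square per degree of freedom was 24.3 to 160, so no pair agreed within counting noise. The paper took its sorted cells from 3 mice each, so libraries of different sorts and regions may share a mouse. The labels name no mouse, so positive and negative cells were not paired and all libraries were fitted as independent. The p-values measure the spread between these libraries. In sorted bulk RNA, more cells of a type and more RNA per cell cannot be told apart.

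Venus-positive cells of the jejunum and ileum had higher levels of most of the 9 genes than Venus-negative cells, while in the duodenum and colon fewer of the genes differed. In the jejunum 7 of the 9 genes rose in positive cells (18.3% of all genes tested did) and 0 fell (25.6% of all genes did). In the ileum 8 rose (17.9% of all genes) and 0 fell (20.6%). In both regions 0 of the 9 were lower at an unadjusted p under 0.05 in edgeR, and 0 by DESeq2. In the duodenum 1 rose (8.88% of all genes) and 2 fell (8.08%), and in the colon 2 rose (9.31%) and 1 fell (3.80%). The median log2 fold change of the 9 genes was 0.07 in the duodenum, 2.23 in the jejunum and 2.91 in the ileum, beside -0.16, -0.28 and -0.27 over all genes. In the colon it was 0.42 over the 7 genes above the floor, beside 0.00 over all genes. Calls were made by edgeR (quasi-likelihood) at a Benjamini-Hochberg adjusted p under 0.05 over 15044 genes.

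**Figure D1:**
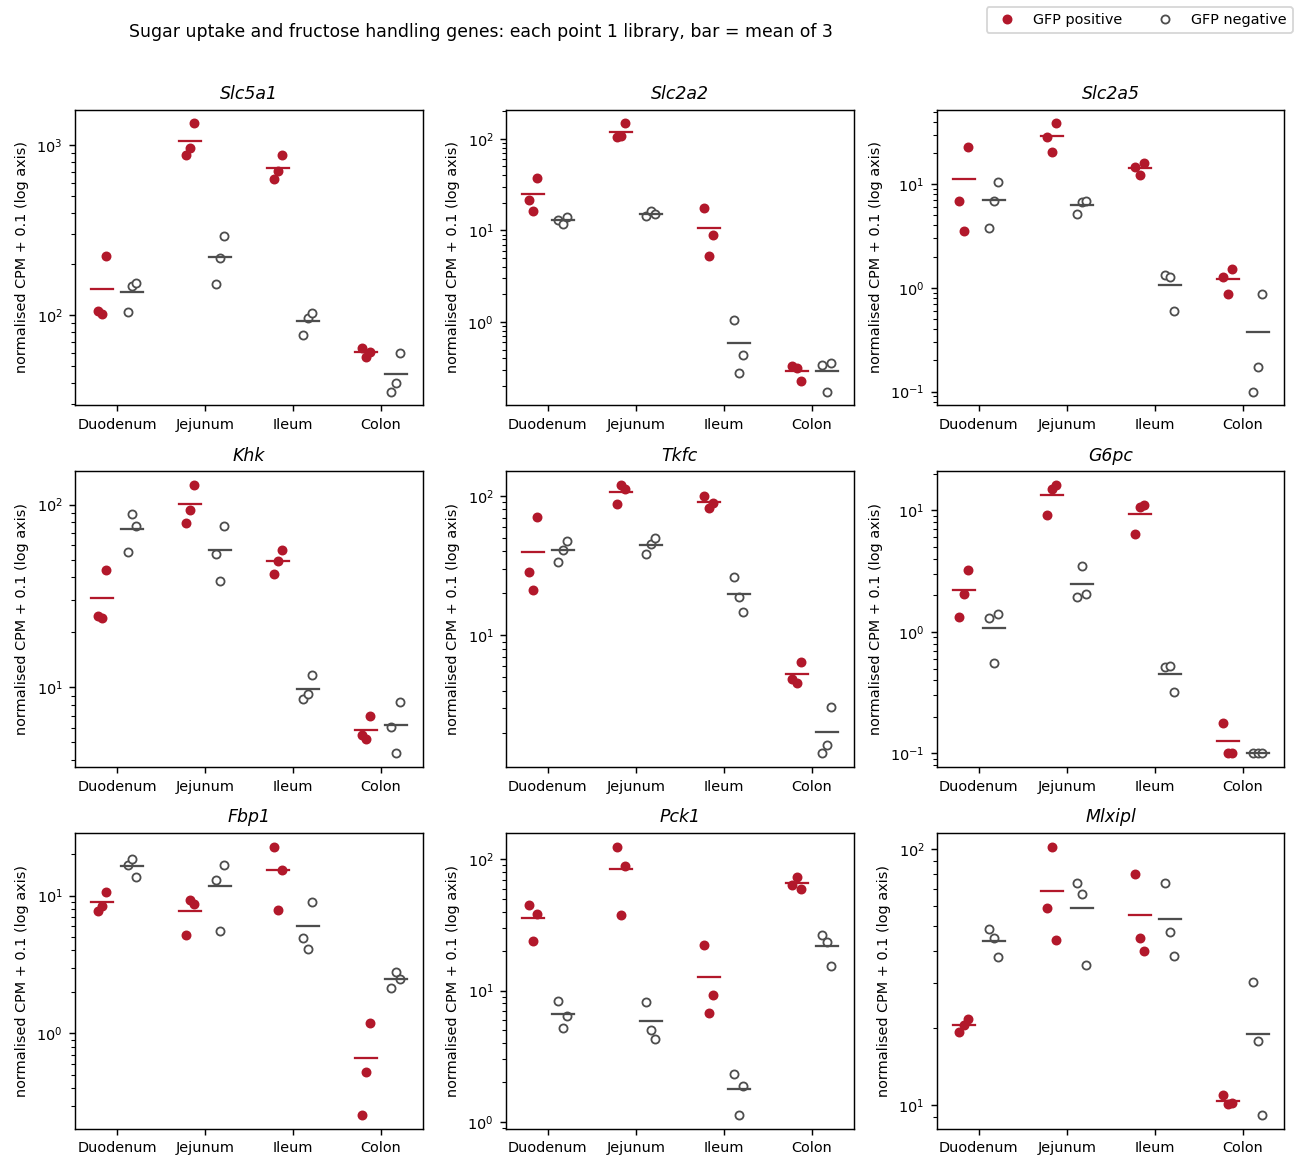
Normalised CPM plus 0.1 on a log axis in each of the 24 libraries, for the 9 genes, by region, with Venus-positive libraries as filled red points, Venus-negative libraries as open grey points and bars at the mean of 3. For *Slc5a1* the positive libraries of jejunum and ileum lie at 636 to 1352 and the negative libraries of those regions at 76.9 to 291.

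*Slc5a1*, the sodium-glucose cotransporter, was the most abundant of the 9 genes per length in 6 of 8 groups. Venus-positive libraries read 106, 101 and 222 normalised CPM for the duodenum, 872, 960 and 1352 for the jejunum, 636 to 878 over the 3 ileal libraries and 64.1, 56.7 and 60.4 for the colon. Venus-negative libraries read 104, 149 and 155 (duodenum), 153, 216 and 291 (jejunum), 76.9, 95.7 and 103 (ileum) and 35.4, 39.6 and 60.0 (colon). Every positive library of jejunum and ileum exceeded every negative one of its region, while the duodenal and colonic groups overlapped. The log2 fold change was 2.27 ± 0.33 in the jejunum (4.82-fold, adjusted p = 3.11e-06) and 3.01 ± 0.34 in the ileum (8.04-fold, adjusted p = 1.19e-07). In the duodenum it was 0.07 (95% interval -0.58 to 0.72, adjusted p = 0.907) and in the colon 0.42 (-0.23 to 1.08, adjusted p = 0.427). Duodenal positive replicate 3 was the highest of its group, and without it the duodenal value was -0.40.

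*Slc2a2*, the basolateral hexose transporter GLUT2, had the largest fold difference of the 9 genes between jejunum and ileum, in both sorts. Its duodenal positive libraries read 21.5, 16.2 and 37.5 normalised CPM, the jejunal ones 104, 107 and 149 and the ileal ones 17.3, 5.17 and 8.90. The negative libraries read 13.0, 11.6 and 13.8, then 14.3, 16.3 and 15.1, then 0.949, 0.176 and 0.333 in the same regions. In the colon no library held more than 3 counts, so no sort comparison is given there. Positive cells exceeded negative cells by 2.98 ± 0.40 in the jejunum (7.86-fold, adjusted p = 8.51e-07) and by 4.41 ± 0.47 in the ileum (21.3-fold, adjusted p = 5.27e-08). Ileal negative replicate 1 was the highest of its group, and without it the ileal value was 5.38. In the duodenum the 2 groups did not overlap, yet the difference of 0.96 ± 0.38 missed the threshold (adjusted p = 0.0754); it passed with scaling by library size alone (1.42, adjusted p = 0.0201), with no filter (1.04, adjusted p = 0.0323) and in a fit of the compared libraries alone (1.02, adjusted p = 0.0170).

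*Slc2a5*, the fructose transporter GLUT5, was the least abundant of the 3 transporters in normalised CPM in every small intestinal group except those of the ileum. Its values in positive cells were 6.76, 3.45 and 22.8 normalised CPM (duodenum), 28.1, 20.1 and 38.7 (jejunum), 14.4, 12.1 and 16.0 (ileum) and 1.16, 0.779 and 1.42 (colon). Negative cells gave 3.65, 6.74 and 10.5 (duodenum), 5.08, 6.56 and 6.84 (jejunum), 1.24, 1.16 and 0.499 (ileum) and 0, 0.0732 and 0.765 (colon). The groups did not overlap in jejunum, ileum or colon. In the colon the gap was narrow, with 11 counts (0.779) in the lowest positive library and 9 (0.765) in the highest negative one. It rose by 2.23 ± 0.54 in the jejunum (4.69-fold, adjusted p = 0.00120) and by 3.84 ± 0.59 in the ileum (14.3-fold, adjusted p = 8.57e-06). The colonic difference was 1.90 ± 0.77 (adjusted p = 0.103), with 1.89 (adjusted p = 0.0287) when no filter was used and 4.42 (adjusted p = 0.0132) without colonic negative replicate 3. Over all single libraries left out, the colonic value ran from 1.30 to 4.42, with adjusted p up to 0.345 in edgeR. Other settings gave 1.79 to 1.99. The duodenal difference was 0.65 (95% interval -0.42 to 1.73) and became -0.46 without duodenal positive replicate 3.

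Ratios of the transporters per kilobase of exon add to this picture. *Slc2a2* stood at 12.7% ± 1.62 of *Slc5a1* (SD, n = 3) in duodenal positive cells, at 8.10% ± 0.384 in jejunal and at 1.06% ± 0.769 in ileal positive cells. The same ratio was 6.95% ± 1.75, 5.25% ± 1.50 and 0.414% ± 0.407 in the negative cells of these regions. The ileal negative libraries gave 0.880%, 0.131% and 0.230%, each below every duodenal and jejunal library, as were the ileal positive ones. *Slc2a5* per kilobase was 40.6% of *Slc2a2* in jejunal positive cells and 280% in ileal positive cells, with ranges of 32.0% to 45.6% and 140% to 397%. These ratios are descriptions without a test.

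The sort difference of *Khk* varied by region. *Khk*, ketohexokinase, gave 24.4, 23.8 and 43.9 normalised CPM in duodenal positive cells against 55.1, 88.2 and 76.6 in duodenal negative cells, with no overlap. In the jejunum positive cells gave 79.3, 93.1 and 128 against 53.6, 38.3 and 76.3, and in the ileum 41.5, 48.9 and 56.4 against 8.58, 9.06 and 11.6. Thus *Khk* was lower in positive cells of the duodenum, by 1.26 ± 0.30 on the log2 scale (adjusted p = 0.00483), and higher in the jejunum by 0.84 ± 0.30 (1.79-fold, adjusted p = 0.0240) and in the ileum by 2.33 ± 0.31 (5.02-fold, adjusted p = 1.41e-06). In the colon it was at 5.41, 5.10 and 6.84 against 5.99, 4.25 and 8.25, a difference of -0.09 (95% interval -0.74 to 0.57). The duodenal call was lost with scaling by library size alone (-0.78, adjusted p = 0.138). The jejunal call was lost without jejunal negative replicate 1 (0.87, adjusted p = 0.0576), without jejunal negative replicate 2 (0.62, adjusted p = 0.134) and without jejunal positive replicate 3 (0.62, adjusted p = 0.131).

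*Tkfc*, triokinase, rose in positive cells of 3 regions. Its libraries gave 88.0, 120 and 113 normalised CPM in jejunal positive against 38.1, 45.3 and 50.0 in negative cells, and 99.5, 82.4 and 89.5 against 26.2, 18.7 and 14.5 in the ileum. In the colon the values were 4.79, 4.46 and 6.33 against 1.32, 1.54 and 2.98, and in the duodenum 28.3, 20.9 and 70.2 against 33.7, 40.7 and 47.5. Only the duodenal groups overlapped. The log2 fold changes were 1.27 ± 0.33 (jejunum, adjusted p = 0.00281), 2.19 ± 0.34 (ileum, adjusted p = 1.06e-05), 1.40 ± 0.39 (colon, adjusted p = 0.0137) and -0.03 (duodenum, 95% interval -0.71 to 0.65). The colonic call was lost without colonic negative replicate 1 (1.22, adjusted p = 0.0633), without colonic negative replicate 2 (1.16, adjusted p = 0.0945) and without colonic positive replicate 3 (1.24, adjusted p = 0.0551). It was also lost with scaling by library size alone (1.29, adjusted p = 0.0635) and in a fit of the compared libraries alone (1.28, adjusted p = 0.118). Exons of *Tkfc* share 596 bases with *Cyb561a3* and 328 with *Ddb1*, both on the opposite strand, and the strand setting of the counts is not given in the sources used here.

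*Pck1*, cytosolic phosphoenolpyruvate carboxykinase, was the only one of the 9 genes called in all 4 regions. It rose in positive cells of all 4 regions, and its groups overlapped in none. Positive and negative libraries gave 45.1, 23.6 and 38.0 against 8.28, 5.06 and 6.34 normalised CPM in the duodenum and 125, 37.8 and 89.4 against 8.12, 4.89 and 4.17 in the jejunum. The ileum gave 22.0, 6.61 and 9.12 against 2.23, 1.02 and 1.77, and the colon 63.4, 73.4 and 59.6 against 26.5, 23.3 and 15.4. The folds were 5.42 (log2 2.44 ± 0.42, adjusted p = 0.000137), 14.7 (3.88 ± 0.44, adjusted p = 1.33e-07), 7.54 (2.91 ± 0.44, adjusted p = 6.99e-06) and 3.02 (1.59 ± 0.40, adjusted p = 0.00770) in duodenum, jejunum, ileum and colon. Without ileal positive replicate 1, the highest of its group, the ileal log2 value was 2.23.

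*G6pc*, the catalytic subunit of glucose-6-phosphatase, was the scarcest of the 9 genes per length in 5 groups. Duodenal positive libraries gave 1.23, 1.97 and 3.15 normalised CPM against 1.19, 0.454 and 1.30 in negative ones. Jejunal libraries gave 9.14, 14.9 and 16.1 against 1.82, 3.41 and 1.94, and ileal libraries 6.24, 10.5 and 11.0 against 0.413, 0.423 and 0.222. The jejunal and ileal groups did not overlap. It rose by 2.48 ± 0.52 in the jejunum (adjusted p = 0.000342) and by 4.66 ± 0.59 in the ileum (25.2-fold, adjusted p = 8.36e-07). The duodenal difference was 1.10 (95% interval -0.02 to 2.23, adjusted p = 0.168). In the colon 1 read of *G6pc* was counted in the positive libraries and 0 in the negative ones, so no fold is given there.

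*Fbp1*, fructose-1,6-bisphosphatase, rose in ileal and fell in colonic positive cells, a difference between regions that was not tested. In the ileum its positive libraries gave 22.5, 7.75 and 15.3 normalised CPM and its negative libraries 4.79, 4.02 and 8.81, a rise of 1.38 ± 0.44 (adjusted p = 0.0140) with overlapping groups. In the colon they gave 0.155, 0.425 and 1.10 against 2.04, 2.71 and 2.38, a fall by 2.04 ± 0.54 on the log2 scale (adjusted p = 0.0110). Duodenal values were 7.58, 8.37 and 10.5 against 16.6, 18.3 and 13.5 (-0.88, adjusted p = 0.171), without overlap and called lower in a fit of the compared libraries alone (-0.82, adjusted p = 0.0383), and jejunal values 5.05, 9.26 and 8.61 against 12.8, 5.47 and 16.5 (-0.60, adjusted p = 0.272). The ileal call was lost without ileal positive replicate 1 (0.97, adjusted p = 0.110), without ileal negative replicate 1 (1.24, adjusted p = 0.0605) and without ileal negative replicate 2 (1.16, adjusted p = 0.0754). The colonic call was lost without colonic positive replicate 1 (-1.62, adjusted p = 0.0799) and without colonic positive replicate 2 (-1.92, adjusted p = 0.0657), and in a fit of the compared libraries alone (-2.18, adjusted p = 0.105). Without colonic positive replicate 3 the colonic value was -2.98.

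*Mlxipl*, the gene of ChREBP, fell in duodenal positive cells, at 19.2, 20.5 and 21.5 against 48.4, 44.9 and 37.6 normalised CPM (-1.10 ± 0.37, adjusted p = 0.0368). That call was lost with scaling by library size alone (-0.64, adjusted p = 0.260). It was also lost without any 1 of 7 libraries, with values between -1.14 and -1.02 and adjusted p between 0.0511 and 0.112. These were all 3 duodenal positive libraries, duodenal negative replicates 1 and 2, and replicate 2 of either colonic group. In the jejunum the groups gave 58.9, 102 and 44.0 against 73.7, 66.7 and 35.1, and in the ileum 79.8, 44.9 and 40.0 against 73.6, 47.3 and 38.1, so they overlapped, with differences of 0.22 and 0.05. In the colon they gave 10.8, 9.98 and 10.1 against 30.0, 17.7 and 9.01 (-0.87, adjusted p = 0.126), and -1.19 (adjusted p = 0.0383) without colonic negative replicate 3. Exons of *Mlxipl* share 235 bases with an antisense gene, Gm43500.

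**Figure D2:**
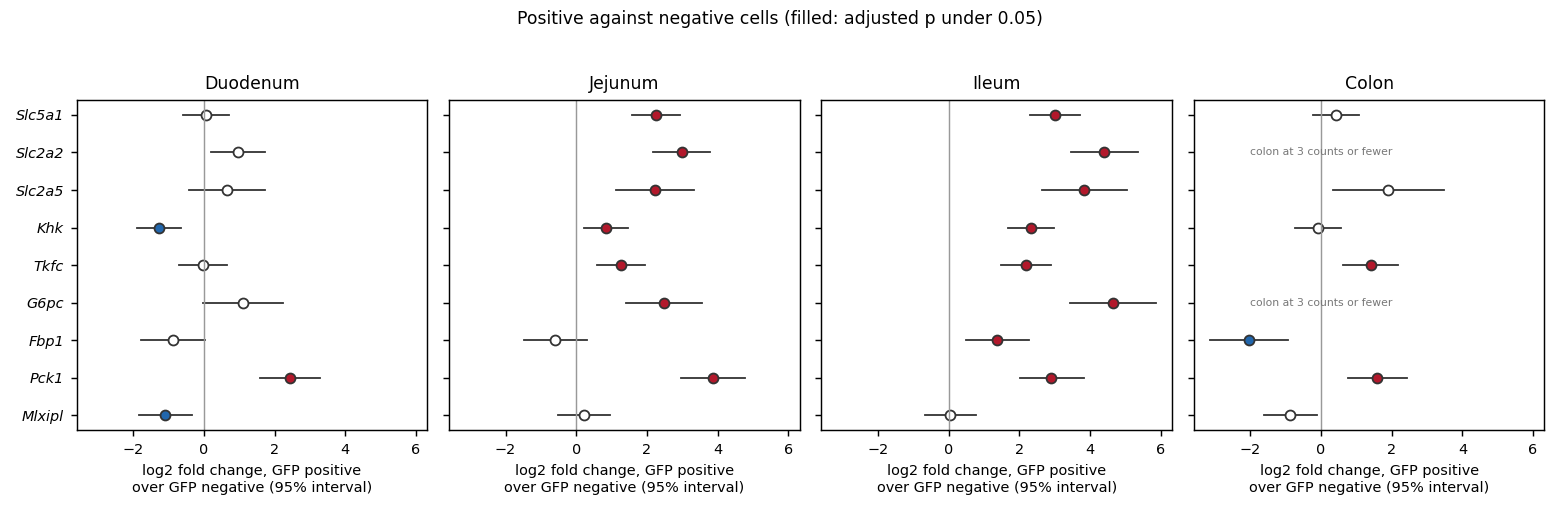
Log2 fold change of Venus-positive over Venus-negative cells (x axis) with 95% intervals for each gene and region, filled red where higher and blue where lower at adjusted p under 0.05, 3 libraries per group. *Slc2a2* and *G6pc* are not drawn in the colon, where no library exceeded 3 counts; most points of jejunum and ileum lie right of 0, with medians of 2.23 and 2.91.

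Whether the sort difference of a gene depended on the region was tested with interaction contrasts, each difference in the duodenum minus that of another region. Against the jejunum 3 of 9 genes differed (14.6% of all genes did), with the lower positive-over-negative value in the duodenum: *Slc5a1* by -2.20 ± 0.45 (adjusted p = 0.00160), *Slc2a2* by -2.01 ± 0.53 (adjusted p = 0.0102) and *Khk* by -2.09 ± 0.43 (adjusted p = 0.00141). Against the ileum 7 differed (10.5% of all genes), all with the lower positive-over-negative value in the duodenum. The values were -2.93 for *Slc5a1*, -3.45 for *Slc2a2*, -3.19 for *Slc2a5*, -3.59 for *Khk*, -2.22 for *Tkfc*, -3.55 for *G6pc* and -2.25 for *Fbp1*, with adjusted p between 4.92e-06 and 0.0172. Single libraries moved 3 of these: *Slc2a2* was -4.43 without ileal negative replicate 1, and *Slc2a5* was -4.29 and *Tkfc* -2.91 without duodenal positive replicate 3. The call of *Fbp1* was lost without ileal positive replicate 1 (-1.85, adjusted p = 0.0555) and without ileal negative replicate 2 (-2.04, adjusted p = 0.0520), and with scaling by library size alone both it (-1.83, adjusted p = 0.0668) and *Tkfc* (-1.66, adjusted p = 0.0539) missed the threshold. *Pck1* differed by -0.48 (95% interval -1.66 to 0.71) and *Mlxipl* by -1.15 (-2.19 to -0.11, adjusted p = 0.160). Against the colon 0 of 9 passed (3.62% of all genes did). There 2 of the 9, *Khk* (-1.17 ± 0.44) and *Tkfc* (-1.43 ± 0.51), had an unadjusted p under 0.05 in edgeR (adjusted p = 0.160 and 0.125), and DESeq2 also called 0. These contrasts share the duodenal libraries. Without duodenal positive replicate 3 the count against the jejunum was 5 and that against the colon was 2. Without colonic negative replicate 3 the count against the colon was 1.

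Along the gut axis, Venus-positive cells gained most of these transcripts between duodenum and jejunum and lost them between ileum and colon. From duodenum to jejunum 8 of 9 genes were higher in the jejunum (33.2% of all genes differed in either direction), the exception being *Fbp1* (0.20, 95% interval -0.70 to 1.10). Duodenum over jejunum, the log2 fold change was -2.89 ± 0.34 for *Slc5a1*, -2.66 ± 0.53 for *G6pc*, -2.26 ± 0.39 for *Slc2a2*, -1.74 ± 0.37 for *Mlxipl*, -1.71 ± 0.31 for *Khk*, -1.43 ± 0.34 for *Tkfc*, -1.40 ± 0.52 for *Slc2a5* and -1.24 ± 0.40 for *Pck1*. The calls of *Slc2a5* and *Pck1*, whose libraries overlapped, did not hold throughout: without a single library the value of *Slc2a5* was as near to 0 as -0.98 (without duodenal positive replicate 2, adjusted p = 0.193) and that of *Pck1* -0.85 (without jejunal positive replicate 1, adjusted p = 0.145) or -1.02 (without duodenal positive replicate 2, adjusted p = 0.0960). For *Slc2a5* the call was also lost without duodenal positive replicate 1 (-1.16), jejunal positive replicates 1 (-1.44) or 3 (-1.15), jejunal negative replicate 1 (-1.36) or colonic positive replicate 2 (-1.36), with scaling by library size alone (-1.24, adjusted p = 0.0948) and in a fit of the compared libraries alone (-1.42, adjusted p = 0.0555). Without duodenal positive replicate 3 the value was -2.51 for *Slc2a5* and -2.13 for *Tkfc*.

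Between jejunum and ileum 3 of the 9 genes differed in positive cells (5.15% of all genes), all higher in the jejunum. *Slc2a2* was 11.4-fold higher (3.51 ± 0.41, adjusted p = 4.89e-07), *Pck1* 6.66-fold (2.74 ± 0.42, adjusted p = 4.61e-05) and *Khk* 2.05-fold (1.03 ± 0.30, adjusted p = 0.0392). Without ileal positive replicate 1 the value of *Pck1* was 3.42. *Slc5a1* differed by 0.52 (95% interval -0.13 to 1.17) and *Tkfc* by 0.24 (-0.43 to 0.91). The call of *Khk* was lost with scaling by library size alone (0.77, adjusted p = 0.242) and without any 1 of 8 libraries, with values of 0.82 to 1.15: jejunal positive replicates 2 and 3, jejunal negative replicate 1, the 3 ileal positive libraries and colonic positive replicates 1 and 2.

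Between ileum and colon all 9 genes differed in positive cells (21.7% of all genes). Of these, 8 were higher in the ileum: *Tkfc* 17.4-fold, *Slc5a1* 12.2-fold, *Slc2a5* 12.5-fold, *Khk* 8.44-fold, *Mlxipl* 5.33-fold and *Fbp1* 26.1-fold. Colonic positive libraries held only 2, 6 and 17 counts of *Fbp1*. For the remaining pair, *Slc2a2* and *G6pc*, the colon was close to 0 counts. *Slc2a2* had 529 reads in ileal and 8 in colonic positive libraries, a ratio of 57.7 after scaling (95% interval 29.0 to 134, counting error only), with 322 of the 529 in ileal positive replicate 1. The fitted log2 value of *Slc2a2* was 5.74, and 5.16 without that library. *G6pc* had 441 and 1, a ratio of 385 (68.7 to 15221). *Pck1* went the other way and was lower in the ileum, by 2.38 ± 0.41 on the log2 scale (adjusted p = 8.17e-05). The log2 value of *Pck1* was -3.06 without ileal positive replicate 1, and that of *Fbp1* 5.65 without colonic positive replicate 3, beside 4.71 with it.

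In Venus-negative cells, between duodenum and jejunum, 0 of 9 genes differed by edgeR (0.725% of all genes did) with 2 of them, *Slc5a1* (-0.70) and *G6pc* (-1.28), at an unadjusted p under 0.05, and 0 by DESeq2. Between jejunum and ileum 6 differed (2.11% of all genes), all higher in the jejunum: *Slc2a2* (30.9-fold), *G6pc* (6.54-fold), *Slc2a5* (6.23-fold), *Khk* (5.76-fold), *Pck1* (3.42-fold) and *Slc5a1* (2.39-fold, adjusted p = 0.0294). *Mlxipl*, at 0.14 (95% interval -0.59 to 0.87), and *Fbp1*, at 0.99 (adjusted p = 0.384), did not pass. *Tkfc* missed the threshold at 1.17 (adjusted p = 0.0667) with groups that did not overlap. It passed by DESeq2 (1.10), with no filter (1.11) and with the i5 index (1.21), and without duodenal positive replicate 2 or 3 (1.16 each), and was 0.50 (adjusted p = 0.453) with scaling by library size alone. The count fell to 3 with scaling by library size alone, which lost the calls of *Slc5a1* (0.71), *Pck1* (1.07) and *Slc2a5* (1.99), and to 3 in a fit of the compared libraries alone, which lost those of *Slc5a1* (1.22), *Pck1* (1.73) and *G6pc* (2.68, adjusted p = 0.0699). The log2 value of *Slc2a2* was 4.95, and 5.92 without ileal negative replicate 1 or 4.26 with scaling by library size alone, which also gave 2.05 for *G6pc* beside 2.71. Left without 1 library, the call of *Slc5a1* was lost for jejunal negative replicates 2 and 3, ileal negative replicates 1 and 2 and replicate 2 of either colonic group (values of 1.0 to 1.29) and that of *Pck1* for jejunal negative replicate 1 (1.39) and ileal negative replicates 2 (1.50) and 3 (1.81).

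Between ileum and colon the negative cells showed 4 of 9 genes that differed (5.24% of all genes). *Tkfc* was 10.1-fold higher in the ileum (3.33 ± 0.39, adjusted p = 4.64e-07) and *Mlxipl* 2.82-fold (1.50 ± 0.37, adjusted p = 0.0111), the latter lost in a fit of the compared libraries alone (1.38, adjusted p = 0.0921) and without ileal negative replicate 1 (1.20), colonic negative replicate 2 (1.35) or colonic negative replicate 3 (1.18). *G6pc* had 26 reads in the ileal and 0 in the colonic libraries, at least 1.27-fold higher against a floor of 3 counts per library, and its call was lost without colonic negative replicate 2 (adjusted p = 0.0619). *Pck1* fell by 3.70 ± 0.45 on the log2 scale in the ileum compared with the colon (adjusted p = 1.18e-06), so it was higher in the colon in both sorts. *Slc2a2* had 34 and 6 reads, 23 of the 34 in ileal negative replicate 1, and did not pass: edgeR gave 1.39 (95% interval -0.09 to 2.88, adjusted p = 0.347), and 0.43 without that library.

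**Figure D3:**
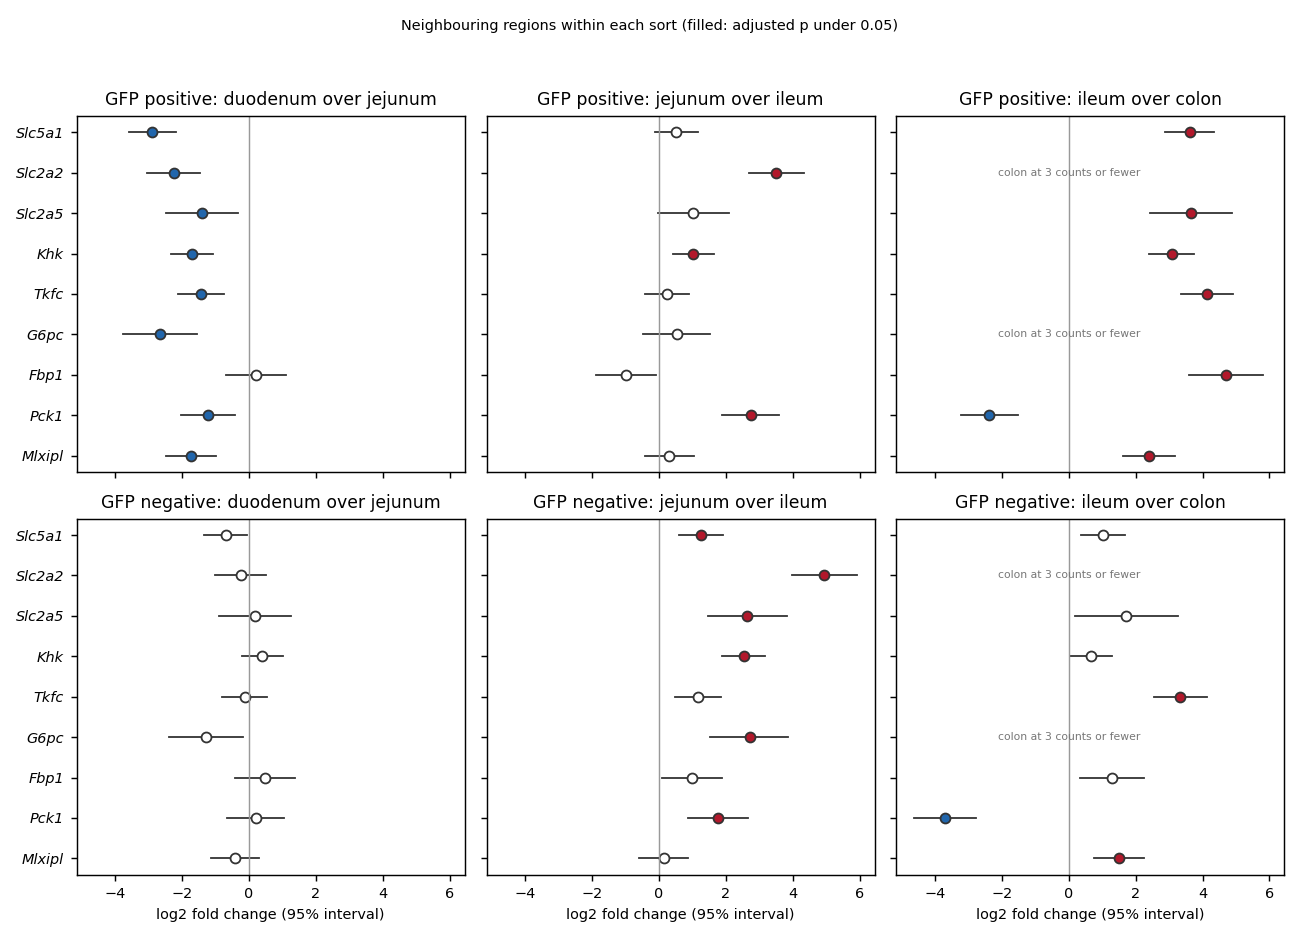
Log2 fold change between neighbouring regions (x axis), with 95% intervals, for each of the 9 genes in Venus-positive (upper row) and Venus-negative cells (lower row), filled where adjusted p was under 0.05. In positive cells 8 genes were lower in the duodenum than in the jejunum, and in negative cells 0 of 9 differed there.

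Per kilobase of exon, the order of the 9 genes changed along the gut. *Slc5a1* led in jejunal and ileal positive cells, at 259 and 180 normalised CPM per kilobase, above every library of *Khk*, second at 55.7 and 27.2. In duodenal negative cells *Khk* was first at 40.8 and *Slc5a1* second at 33.1, with overlapping libraries. In colonic positive cells *Pck1* was first at 19.1 and *Slc5a1* second at 14.7, without overlap, followed by *Khk* at 3.22. In the colonic negative cells *Slc5a1* was first at 11.0 and *Pck1* second at 6.34. In most groups the middle ranks overlapped: of the ileal positive cells *Mlxipl*, *Fbp1*, *Slc2a5*, *G6pc*, *Pck1* and *Slc2a2*, in that order from 9.92 to 1.82, each overlapped the next.

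Venus-positive and Venus-negative cells differed in cell type markers, and the enterocyte list had its largest differences in jejunum and ileum. The summed level of 10 enterocyte markers was 27125 to 32554 normalised CPM in jejunal positive and 2632 to 3466 in jejunal negative cells, and 8823 to 17098 and 638 to 1087 in the ileum. In the duodenum it was 2263 to 4882 against 1787 to 2543 and in the colon 452 to 700 against 189 to 204. None of the 10 was at 0 in any group, and 10, 10, 3 and 5 of the 10 rose in jejunum, ileum, duodenum and colon. The summed level of the 9 genes was not in constant proportion to this list: per 100 normalised CPM of enterocyte markers it was lower in positive than in negative cells of every region, at 8.89 to 9.72 against 14.2 to 17.4 in the duodenum, 4.21 to 6.14 against 11.6 to 14.9 in the jejunum, 6.30 to 10.6 against 16.3 to 30.6 in the ileum and 20.8 to 33.2 against 43.8 to 53.5 in the colon. Both sums weigh abundant genes most. *Slc5a1* alone averaged 1061 of the 1590 normalised CPM of the 9 genes in jejunal positive cells. *Apoa4* and *Apoa1* of the enterocyte list reached group means of 10798 and 7716. Of 5 colonocyte markers 5 rose in the colon and 4 in the ileum, with sums of 1492 to 1691 against 105 to 263 and of 226 to 309 against 30.5 to 47.6. In jejunum and duodenum 1 and 0 of them rose and 1 and 2 fell. Goblet markers in duodenal positive cells summed to 52138 to 58901 against 267 to 372 in negative cells, and Paneth markers to 22151 to 52958 against 194 to 746. Both were also higher in positive cells where the sugar genes rose: goblet sums were 1800 to 4634 against 262 to 396 in the jejunum and 4077 to 9465 against 259 to 320 in the ileum, and Paneth sums 1541 to 16118 against 289 to 795 and 4072 to 9629 against 233 to 430. All 6 goblet markers rose in each of the 4 regions and all 6 Paneth markers in the 3 regions of the small intestine. Of 8 enteroendocrine markers 8, 8, 7 and 5 fell in duodenum, jejunum, ileum and colon, with sums of 28.1 to 50.0 against 370 to 1567 in the jejunum and 18.5 to 47.6 against 211 to 510 in the ileum. Duodenal positive replicate 3, which was high for *Slc5a1*, *Slc2a2*, *Slc2a5*, *Khk* and *Tkfc*, had the highest enterocyte sum of its group (4882 beside 2923 and 2263) and the lowest Paneth sum. Of all 24 libraries it also had the fewest counts on genes (7458616) and the lowest mitochondrial share (32.3%). Its share of reads that name no gene was the highest (75.8%). The part of these in its values was not tested. Stem and proliferative markers summed to 35.0 to 299 in jejunal positive against 1511 to 2472 in jejunal negative cells and to 116 to 225 against 1081 to 3687 in the ileum, and 6 of 6 fell in both regions. Kidney proximal tubule markers, whose cells share several of these genes, summed to at most 1.06 in any library, and hepatocyte markers to at most 20.5, with *Alb* and *Serpina1a* too low to be tested and *Ttr* lower in positive cells of jejunum and colon. Fibroblast and muscle markers summed to at most 0.300 in ileal positive and to 0.388 to 13.0 in ileal negative cells, where 3 of 3 tested fell, and B and T cell markers to at most 10.0 in any library, with 2 of 4 tested lower in jejunal positive cells. The part of these cell types in the differences of the sugar genes was not tested.

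**Figure D4:**
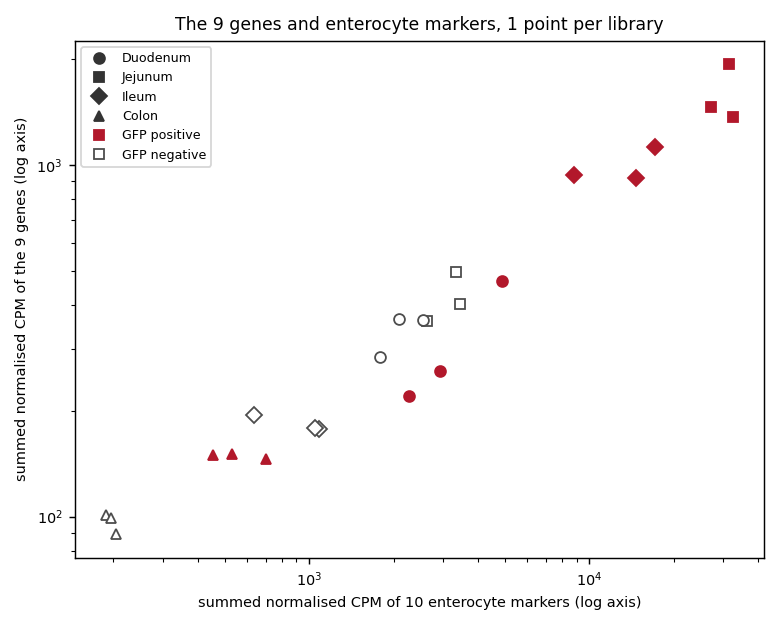
Summed normalised CPM of the 9 genes (y axis, log) against that of 10 enterocyte markers (x axis, log), 1 point per library, with shape for region and fill for sort. Jejunal positive libraries reach 1370 to 1938 on the y axis at 27125 to 32554 on the x axis, and colonic negative libraries 89.2 to 101 at 189 to 204.

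Summed over the 9 genes, the level was 1590 ± 305 normalised CPM (SD, n = 3) in jejunal positive and 420 ± 69.7 in jejunal negative cells, 995 ± 112 and 184 ± 9.58 in the ileum, 316 ± 134 and 337 ± 45.5 in the duodenum and 149 ± 2.69 and 96.6 ± 6.47 in the colon. With scaling by library size alone the order of the duodenal means turned, to 365 ± 170 in positive and 281 ± 46.3 in negative cells.

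Over the 24 libraries, which share regions and sorts, Pearson's r of log2 CPM among the 9 genes ran from 0.94 for *Slc5a1* with *G6pc* and for *Slc2a5* with *Tkfc* to -0.41 for *Pck1* with *Fbp1* and with *Mlxipl*. *Pck1* correlated with no other member above 0.21. Among the genes most like each member in this measure were *Xpnpep1*, *Slc15a1* and *Tfg* for *Slc5a1* (r from 0.97 to 0.98) and *Cyp3a11*, *Apoc3* and *Leap2* for *Slc2a2* (0.97). *Khk* was like *Slc25a45* (0.96) and *Mme* (0.95), *Slc2a5* like *Treh* (0.96), *Gpd1* and *Ttc39c* (0.95), *Tkfc* like *Slc7a9*, *Mfsd4b2* and *Sis* (0.97), and *G6pc* like *Slc43a2*, *Apoa1* and *Ace* (0.97). The likeness was looser for *Fbp1* (*Nae1* 0.90, *Otc* 0.88, *Cd302* 0.87), *Pck1* (*Mmp15* 0.89, Gm37352 0.88, *Fam114a1* 0.85) and *Mlxipl* (*Pipox* 0.85, *Snx18* 0.85, *Sfxn1* 0.84). These values describe the 24 libraries and carry no test.

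Other genes of the same pathways were followed in 8 lists. Their counts stand beside the shares of all 15044 genes, of which 8.88%, 18.3%, 17.9% and 9.31% rose and 8.08%, 25.6%, 20.6% and 3.80% fell in duodenum, jejunum, ileum and colon. Among 13 tested hexose transporters other than the 3 members, 3, 6, 6 and 2 rose and 0, 2, 1 and 0 fell in duodenum, jejunum, ileum and colon. *Slc5a4b*, an SGLT3 gene, stood at 53.0, 30.9 and 60.2 normalised CPM in jejunal positive against 3.57, 1.54 and 5.02 in negative cells (3.83 ± 0.62, adjusted p = 1.13e-05), and rose by 3.51 in the ileum (2.90 without ileal positive replicate 3). *Slc5a4a*, a close paralog, rose by 2.63 in the jejunum (1.98, adjusted p = 0.0665, without jejunal positive replicate 3) and 4.03 in the ileum, and *Slc5a11*, an inositol transporter gene, by 2.83 and 3.01. Ileal negative libraries held only 5, 2 and 4 counts of *Slc5a4a*. How the counting treated reads shared between the paralogs *Slc5a4a* and *Slc5a4b* is not given in the sources used here, so their values are less certain. *Slc2a1*, the widely expressed glucose transporter GLUT1, rose in the duodenum (2.05 ± 0.39) and colon (1.74 ± 0.38) and gave -0.80 (adjusted p = 0.125) in the jejunum. *Slc2a10* stood at 13.1, 2.05 and 8.44 in duodenal positive and 0, 0.130 and 0.288 in duodenal negative cells.

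Of 14 tested fructose, polyol and galactose enzymes, 1, 6, 6 and 2 rose and 1, 3, 2 and 1 fell in the same order of regions. The duodenal counts and the 3 that fell in the jejunum are near the shares of all genes. *Akr1b7*, of the aldose reductase family, rose in jejunum (2.35), ileum (4.25) and colon (2.69), the colonic call being lost in a fit of the compared libraries alone (adjusted p = 0.103). *Akr1b3*, aldose reductase, fell in the jejunum, from 2.20, 3.67 and 1.63 normalised CPM in negative to 0.320, 0 and 0.365 in positive cells, and *Aldh1b1*, an aldehyde dehydrogenase gene, fell by 1.54 there. *Aldh1b1* also fell in the ileum (by 0.83) and colon (by 0.91, adjusted p = 0.0496), but both calls were lost with scaling by library size alone (-0.87 and -1.02) and with no filter (-0.76 and -0.92), and without any 1 of 5 libraries in the ileum (-0.85 to -0.69) and of 18 in the colon (-0.97 to -0.79).

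Of 14 other gluconeogenic genes 2, 8, 9 and 4 rose and 1, 2, 2 and 1 fell, the 2 in jejunum and in ileum being below the shares of all genes that fell. *Gpt*, an alanine aminotransferase gene, rose in jejunum (2.97), ileum (3.53) and colon (2.59), while *Gpt2*, its mitochondrial relative, rose by 5.93 ± 0.71 in the duodenum and by 1.82 in the jejunum and 1.71 in the ileum. Duodenal negative libraries held only 0, 13 and 1 counts of *Gpt2*. The jejunal call of *Gpt2* was lost in a fit of the compared libraries alone (1.86) and without jejunal negative replicate 1 (1.78) or 3 (1.58), and the ileal call without ileal positive replicate 1 (1.37) or ileal negative replicate 1 (1.48) or 3 (1.37). Over all single libraries left out, the ileal value of *Gpt2* ran from 1.37 to 2.54. *Mdh1*, cytosolic malate dehydrogenase, rose in jejunum (1.17) and ileum (1.15). *Pck2*, the mitochondrial form of the carboxykinase, fell in the jejunum by 2.98 ± 0.44 and in the ileum by 2.50 ± 0.43, opposite to *Pck1* there.

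Of 5 genes of glucose phosphorylation 2, 1, 2 and 2 rose and 0, 1, 1 and 0 fell, so that the jejunal counts are near the shares of all genes. The hexokinase gene *Hk1* rose in the duodenum (4.53 ± 0.59), *Hk2* in duodenum (2.45), ileum (1.06) and colon (2.09), and *Hkdc1* in jejunum (1.73), ileum (2.47) and colon (3.13). The ileal call of *Hk2* was lost without ileal positive replicate 2 (0.74) or ileal negative replicate 1 (0.94) or 3 (0.96). *Adpgk*, an ADP-dependent glucokinase gene, fell in the jejunum (by 3.89) and ileum (by 2.86).

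Of 16 partners and targets of ChREBP 3, 3, 7 and 7 rose and 0, 5, 3 and 0 fell, while *Mlxipl* itself did not pass in jejunum or ileum. The jejunal counts and the 3 that fell in the ileum are near the shares of all genes. *Pklr*, liver-type pyruvate kinase, rose by 1.78 in the jejunum and 2.50 in the ileum, by 0.99 in the duodenum (0.80, adjusted p = 0.0533, without duodenal positive replicate 3) and by 0.89 in the colon. The colonic call was lost without colonic positive replicate 2 (0.76), colonic negative replicate 2 (0.68) or colonic negative replicate 3 (0.86), and with scaling by library size alone (0.79), no filter (0.89) or the compared libraries alone (0.77). *Txnip*, a thioredoxin-binding protein gene, rose in the duodenum (0.78), ileum (1.50) and colon (1.36), the duodenal call being lost with no filter (0.85) and without any 1 of the 6 duodenal libraries (0.71 to 0.87). *Gpd1*, glycerol-3-phosphate dehydrogenase, rose in jejunum, ileum and colon (1.61, 2.60, 1.77) and so did *Tm6sf2*, a gene of lipoprotein assembly (1.73, 2.98, 2.42), whose colonic call was lost in a fit of the compared libraries alone (adjusted p = 0.0884). *Fasn*, fatty acid synthase, fell in the jejunum by 2.52 ± 0.31 and in the ileum by 1.26 ± 0.29.

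Of 16 regulators of absorptive and gluconeogenic genes 1, 7, 6 and 6 rose and 0 fell by edgeR, with 4 lower in the duodenum and 1 in the ileum at an unadjusted p under 0.05. The duodenal 1 is near the share of all genes. *Hnf4a*, a nuclear receptor gene of enterocytes and hepatocytes, rose in jejunum (1.46), ileum (1.42) and colon (1.25) and its relative *Hnf4g* in jejunum (1.29) and ileum (2.44). *Creb3l3*, a membrane-bound transcription factor gene, rose in jejunum (3.49 ± 0.61) and ileum (4.79 ± 0.67). *Gata4*, a factor of the proximal intestine, rose in ileum (1.40) and colon (2.49) at levels of at most 2.82 normalised CPM, and a fit of the compared libraries alone lost both calls (adjusted p = 0.0679 and 0.174).

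Of 4 tested sweet taste genes 0 rose by edgeR in any region, 0 also at an unadjusted p under 0.05, and 2, 3, 3 and 0 fell. Of 4 tested tuft cell markers 3, 4, 4 and 0 fell in the same order, with *Trpm5* in both lists, and tuft sums were 2.13 to 3.73 normalised CPM in ileal positive against 23.4 to 35.3 in negative cells; their part in the sweet taste values was not tested. One of the 3 ileal calls, *Gnat3*, a taste G protein gene with 0 counts in positive and 13, 3 and 3 in negative libraries, lay at the threshold (adjusted p = 0.0498) and was lost without any 1 of 21 of the 24 libraries, by DESeq2 (adjusted p = 0.0573), with RLE size factors (adjusted p = 0.0513) and with no filter (adjusted p = 0.0872). *Trpm5*, a cation channel of taste and tuft cells, fell by 2.75 in duodenal and by 3.81 in ileal positive cells, and by 1.73 in the jejunum, where the call was lost without jejunal positive replicate 1 (-1.43) or jejunal negative replicate 2 (-0.99). *Plcb2*, a phospholipase of taste signalling, had 1, 0 and 1 counts in duodenal positive libraries against 23, 55 and 20 in negative ones. It fell in jejunum and ileum too, the jejunal call being lost without jejunal positive replicate 2 (adjusted p = 0.0581). *Tas1r3*, a sweet receptor subunit gene, stood at no more than 4.63 normalised CPM in any library and fell by 2.16 in the jejunum, a call lost with scaling by library size alone (-1.68) and in a fit of the compared libraries alone (-2.15), and without jejunal positive replicates 2 (-2.03) or 3 (-1.66) or jejunal negative replicates 1 (-1.70) or 2 (-1.95). Over all single libraries left out, the jejunal value of *Tas1r3* ran from -3.09 to -1.66. Of 7 genes of sodium handling 2, 5, 5 and 2 rose and 0, 1, 1 and 0 fell, the 1 in jejunum and in ileum being below the shares of all genes that fell. The sodium pump subunit gene *Atp1b1* rose in jejunum (1.17) and ileum (1.39), *Pdzk1*, a scaffold of apical transporters, rose in the duodenum (1.67, and 1.23 with adjusted p = 0.0502 without duodenal positive replicate 3), jejunum (3.62 ± 0.42) and ileum (4.54 ± 0.44), and the sodium-proton exchanger *Slc9a3* rose in jejunum (2.16), ileum (2.64) and colon (3.60). The kinase gene *Sgk1* rose in jejunum (3.21), ileum (2.70) and colon (1.24), the colonic call being lost with scaling by library size alone (1.08) and without colonic positive replicate 2 (0.92) or colonic negative replicate 1 (1.15) or 2 (1.01).

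Single libraries moved the fold of some of these companion genes, on the scale before taking log2, by over 1.5 times, with the call kept. The values that follow are log2 fold changes. In the duodenum *Hk1* was 5.29 without negative replicate 3, *Gpt2* 8.80 without negative replicate 2 and *Trpm5* -2.16 or -3.67 without positive replicate 2 or 3. In the ileum *Creb3l3* was 4.03 without positive replicate 3, *Adpgk* -3.74 without positive replicate 2, and *Akr1b7* 5.04 and *Slc9a3* 3.63 without negative replicate 2. In the colon *Slc9a3* was 4.41 without negative replicate 1, *Gata4* 4.30 without negative replicate 2 and *Tm6sf2* 3.63 without negative replicate 3.

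**Figure D5:**
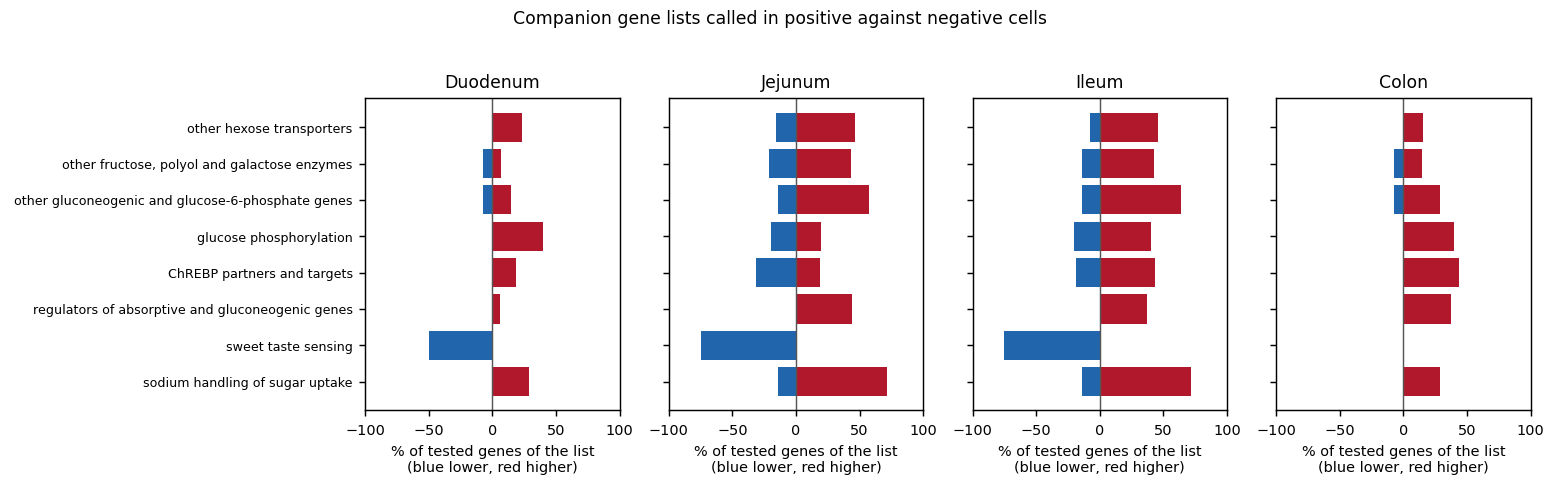
Percent of tested genes in each of 8 companion lists (rows) that were higher (red, right) or lower (blue, left) in Venus-positive cells at adjusted p under 0.05, by region. Sodium handling genes reached 5 of 7 higher in jejunum and in ileum, and sweet taste genes 3 of 4 lower.

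The median log2 fold changes were 1.02, 1.29, 0.47 and 0.97 for hexose transporters and 0.21, 1.52, 1.66 and 0.81 for sodium handling in duodenum, jejunum, ileum and colon, where all genes gave -0.16, -0.28, -0.27 and 0.00. Gluconeogenic genes gave -0.13, 1.07, 1.07 and 0.52, fructose, polyol and galactose enzymes 0.10, 0.39, 0.87 and 0.08, and glucose phosphorylation -0.42, -0.77, 1.05 and 1.02. The lists of ChREBP targets, regulators and sweet taste gave 0.14, -0.26, 0.63 and 1.07, then -0.33, 0.78, 0.44 and 0.66, then -1.73, -1.95, -4.06 and -0.95. Scaling by library size alone reversed the sign of 5 of these 32 medians: duodenal gluconeogenic genes (0.33), glucose phosphorylation (0.03) and regulators (0.10), jejunal ChREBP targets (0.07), and colonic fructose, polyol and galactose enzymes (-0.05).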

How the data were processed

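RNA from FACS-sorted epithelial cells of Guca2a-Venus mice was sequenced as 24 libraries (3 for each of 4 regions and 2 sorts). The authors aligned the reads to GRCm38 with STAR 2.5.1, per the submitters' processing notes, and deposited raw counts per gene. The strand setting and annotation release of the counting are not given in the sources used here. The 4 lines that name no gene (39.4% to 75.8% of reads) were left out. Gene names came from GENCODE M21, which named 53360 of 53465 genes.

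Counts were filtered (minimum count 10, minimum total 15), TMM-scaled and fitted over all 24 libraries with 8 group coefficients in edgeR 4.0.16 (R 4.3.3, limma 3.58.1), using quasi-likelihood tests and Benjamini-Hochberg adjustment over 15044 genes (threshold 0.05). Each SE is the log2 fold change divided by the root of F, and intervals are 95%. The fit was tested on simulated counts. Levels per kilobase used the union of exons. Correlations used log2 CPM with a prior count of 2. Figures were drawn in Python 3.11.15 with matplotlib 3.10.9. Alternatives were DESeq2 1.42.0, other scalings, no filter, protein-coding nuclear genes, the i5 index as covariate, the compared libraries alone and each library left out.

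The 9 genes and the gene lists were chosen with earlier results of these data known. Named genes were all 9, up to 3 of each list by level and 3 by change, and the 3 most correlated genes of each member. Some genes that this rule names are not reported here. Replicate numbers follow the order of deposition and were not used to pair libraries, although the library numbered 3 had the highest share of reads that name no gene in all 8 groups; whether libraries of 1 number share a mouse or a batch is not given in the labels. The floor was fixed at 3 counts, and the depth of 7458616 to 23063124 counts set its value in normalised CPM.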

Additional observations from a re-analysis of the deposited data

Results flagged for a closer look

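For 10 values the sort difference depended on the region, each by an interaction contrast in edgeR with adjusted p under 0.05 and 3 libraries per group. Duodenum minus jejunum, the difference of the log2 fold changes was -2.20 for *Slc5a1*, -2.01 for *Slc2a2* and -2.09 for *Khk*. Duodenum minus ileum, it was -2.93 for *Slc5a1*, -3.45 for *Slc2a2*, -3.19 for *Slc2a5*, -3.59 for *Khk*, -2.22 for *Tkfc*, -3.55 for *G6pc* and -2.25 for *Fbp1*. Both sets use the same duodenal libraries. The sort difference of *Khk* was called in opposite directions in the duodenum (-1.26, lost with scaling by library size alone at -0.78) and the ileum (2.33). In a fit of the compared libraries alone this also held for *Fbp1* (-0.82 and 1.43).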

How the results depend on the processing

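Of the values recomputed under other tests, scalings, filters, gene sets, covariates and sample sets, 1438 kept their direction and side of the threshold, 42 lost the threshold, 20 gained it, 10 turned sign and 29 summed levels or counts moved. With single libraries left out these numbers were 4658, 148, 17 and 25, with 0 moved; the values of companion genes were added after seeing the data. Scaling by library size alone moved the median log2 fold change of all genes from -0.16 to 0.27 in the duodenum and from -0.28 to 0.02 in the jejunum, and gave 2267 genes higher and 350 lower in the duodenum. Of the 9 genes, 2 were higher in duodenal positive cells with library size alone, no filter or the compared libraries alone, and 0 were lower with library size alone and 3 with the compared libraries alone. In the colon 1 was higher with library size alone or the compared libraries alone, and 3 were with no filter, while 0 were lower with the compared libraries alone. The duodenum to jejunum sort difference was called for 5 genes by DESeq2 and with the i5 index, and for 6 without the filter. In negative cells, jejunum against ileum gave 3 with library size alone or the compared libraries alone and 7 by DESeq2, with no filter or with the i5 index. Ileum against colon gave 2 with the compared libraries alone, 5 by DESeq2 or with the i5 index and 6 with library size alone, which added *Slc5a1* (1.44) and *Fbp1* (1.74). With single libraries left out, the counts ran from 1 to 2 (duodenum lower), 1 to 3 (colon higher), 0 to 2 (colon lower), 3 to 5 (sort difference, duodenum against jejunum), 0 to 2 (against colon), 4 to 7 (negative cells, jejunum against ileum) and 2 to 5 (negative cells, ileum against colon). The values that turned sign were not called. *Tkfc* in the duodenum was 0.44 with library size alone, 0.04 without the filter, 0.02 on protein-coding nuclear genes and 0.01 in the compared libraries alone. Library size alone gave -0.03 for *Mlxipl* in the ileum, 0.23 for *Slc5a1* and 0.25 for *Mlxipl* in the duodenum to colon sort difference, -0.04 for *Tkfc* in positive cells of jejunum against ileum, and -0.62 for *Mlxipl* in negative cells of jejunum against ileum (-0.08 with the i5 index). Leaving out single libraries, sort differences ran from -0.40 to 0.26 for *Slc5a1*, -0.46 to 1.08 for *Slc2a5* and -0.73 to 0.27 for *Tkfc* in the duodenum, -0.37 to 0.20 for *Khk* in the colon, and -0.10 to 0.48 (jejunum) and -0.32 to 0.36 (ileum) for *Mlxipl*. Between regions they ran from -0.03 to 0.40 (*Fbp1*, positive, duodenum against jejunum), -0.08 to 0.68 (*Mlxipl*, positive, jejunum against ileum), -0.11 to 0.45 (*Mlxipl*, negative, jejunum against ileum), 0.00 to 0.60 (*Pck1*, negative, duodenum against jejunum) and -0.25 to 0.48 (*Slc2a5*, same contrast). The interaction ranged from -0.63 to 0.06 for *Fbp1* against the jejunum, -0.79 to 0.20 for *Pck1* against the ileum and -0.73 to 0.09 for *Mlxipl* against the colon. The cause was not tested. No paired analysis was run, because the labels name no mouse and the replicate numbers only follow the order of deposition. The paper took its sorted cells from 3 mice each, so libraries of different regions and sorts may share a mouse. The fits treated all libraries as independent, and the effect of such sharing was not tested. Where a colonic group held 0 to 3 counts per library, depth limits what can be compared.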

Other observations

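Several companion genes also changed along the gut in Venus-positive cells. *Slc2a1*, GLUT1, averaged 23.6, 1.61, 4.84 and 48.6 normalised CPM from duodenum to colon, with log2 fold changes of 3.88 ± 0.43 (duodenum over jejunum, adjusted p = 9.49e-08), -1.60 ± 0.41 (jejunum over ileum, adjusted p = 0.0177) and -3.32 ± 0.41 (ileum over colon, adjusted p = 3.25e-07). The hexokinase gene *Hk1* likewise was higher in duodenum than jejunum (3.20 ± 0.53) and lower in ileum than colon (-3.23 ± 0.51), and *Fasn* differed by 3.09 ± 0.32 and -1.71 ± 0.29 in the same contrasts.

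*Gata4* was higher in jejunum than ileum in both sorts, by 4.17 ± 0.36 in positive and 4.82 ± 0.38 in negative cells (adjusted p = 3.56e-09 and 1.01e-09), and *Creb3l3* by 3.29 ± 0.61 and 4.58 ± 0.67. *Slc9a3* was at 147 normalised CPM in jejunal, 11.4 in ileal and 76.2 in colonic positive cells.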
